A study of Homo sapiens with 4 samples.

Results

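S phase and mitosis genes are the genes whose products copy the DNA, separate the chromosomes and divide the cell. A list of 44 of them was looked up by symbol in the raw and normalized count tables of a DAOY transcriptome, and 43 were found among 20363 genes, of which 18 act in DNA replication and 25 in mitosis. KIF23 was not analysed here. All 43 passed the filter of at least 10 counts in at least 2 libraries and are among the 14970 genes tested, and the smallest count of any of them was 55, so that no member was lost to low values.

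DAOY is a cell line derived from a human medulloblastoma, a tumour of the cerebellum. RNA was sequenced in 4 libraries, 1 per condition and with no replicate: SAG-treated cells overexpressing the transcription co-factor ZNF521, SAG-treated control (CTL) cells, DMSO-treated ZNF521 cells and DMSO-treated CTL cells. SAG is an agonist of SMO that switches on the Sonic hedgehog pathway, and DMSO is its solvent. The methods describe a lentiviral vector that carries the transgene and EGFP, and sorted cells that were more than 90% positive for EGFP. The controls are given as wild type in one description of the study and as carrying a control vector in another, so that the ZNF521 comparison may also hold the effect of transduction. SAG was given for 48 h after 24 h of starvation at 2.5 to 200 nM. Other assays of RNA and protein in DAOY cells of the study used 200 nM. The dose for the sequenced cells is not given in the sources used here.

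In the cycle of a dividing cell, E2F factors and cyclin E with CDK2 open S phase, in which the MCM helicase, loaded on origins by CDC6 and CDT1, unwinds the DNA and PCNA holds the polymerases on it. Genes for mitosis peak later, when cyclins A and B with CDK1 drive the cell into division and the spindle checkpoint holds anaphase until every chromosome is attached. Many of the mitotic genes are repressed in resting cells by the DREAM complex through the CHR element of their promoters, and Sonic hedgehog signalling is known as a mitogen of cerebellar granule neuron progenitors.

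Total counts were 12294833 to 16314685 per library. The labels held for their targets: ZNF521 had 2072 and 751 normalized counts in ZNF521 and CTL cells with SAG and 2013 and 714 with DMSO (log2 fold change 1.47 ± 0.15 SE, adjusted p = 0.00357 by edgeR's quasi-likelihood test), and GLI1, a target of the pathway, had 318 and 324 with SAG, against 44.2 and 75.4 with DMSO (2.44 ± 0.22 SE, adjusted p = 0.00054). Of the markers of the granule neuron lineage, ZIC1 (241 to 303 normalized counts) and PAX6 (294 to 307) were present, while ATOH1 had 1 count in each library and BARHL1 at most 2. Immune, endothelial and erythroid markers had 0 to 60.9 normalized counts. The library of CTL cells with DMSO stood apart. The SD of the log2 deviation from the mean of the 4 libraries, over genes whose mean count reached 200, was 0.273 in that library and 0.126 to 0.142 in the others.

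The members were abundant. Among replication genes, MCM7, a subunit of the replicative helicase, had the highest mean level per kilobase of transcript (5673 normalized counts per kb), and CCNE2, a cyclin E gene, the lowest (35.1 per kb). Among mitotic genes the highest was CCNB1, cyclin B1 (3620 per kb), and the lowest CENPE, a kinesin of the kinetochore (37.3 per kb). CENPE had 359 normalized counts in SAG-treated ZNF521 cells and 356 in SAG-treated CTL cells, against 352 in DMSO-treated ZNF521 cells and 209 in DMSO-treated CTL cells, so that 3 libraries lay together and the fourth below them. Its log2 fold change with SAG, described below, was 0.38 with all libraries and 0.02 without CTL cells with DMSO.

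This order of libraries was frequent among the members. CTL cells with DMSO had the lowest level of the 4 libraries for 20 of 25 mitotic genes and 13 of 18 replication genes, against 37.5% of all genes tested. They had the highest level for 4 mitotic genes (AURKB, MKI67, PLK1 and TPX2) and 3 replication genes (TYMS, CDT1 and GINS2), against 34.5% of all genes tested. The highest level lay in SAG-treated CTL cells for 13 mitotic and 8 replication genes, against 23.4% of all genes tested. The median deviation of the mitotic genes from their 4-library mean was 0.09 in SAG-treated ZNF521 cells, 0.16 in SAG-treated CTL cells, 0.02 in DMSO-treated ZNF521 cells and -0.24 in DMSO-treated CTL cells (log2 of normalized count plus 1). For replication genes it was 0.03, 0.05, -0.01 and -0.11 in the same order of libraries, a smaller spread. In bulk RNA, fewer cells in a phase of the cycle and less of its RNA per cell cannot be told apart.

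**Figure D1:**
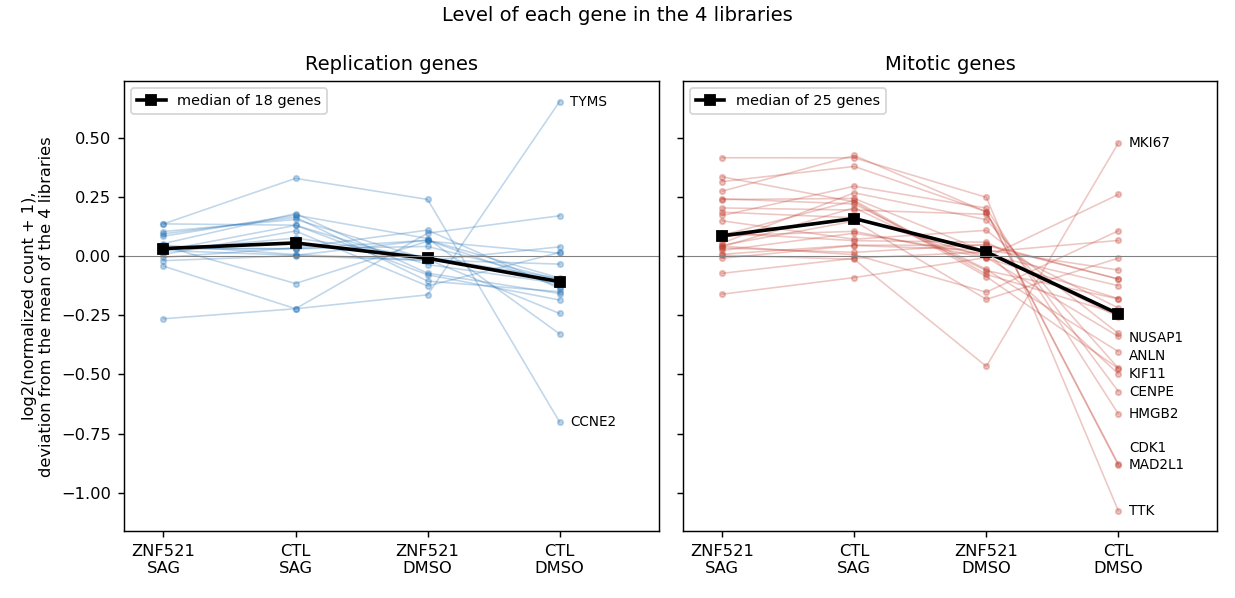
Level of each of 18 replication genes (left) and 25 mitotic genes (right) in the 4 libraries, as the deviation of log2(normalized count + 1) from the gene's mean over the libraries. Thin lines join the points of 1 gene and black squares are medians, which reach -0.11 and -0.24 in CTL cells with DMSO, while TYMS and MKI67 run the other way there.

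The promoters of the 2 groups differ in the short motifs they hold. RefSeq promoter sequences (GRCh38.p14, 250 bases before to 50 after the start) were matched for 33 members, and the core letters of the CHR element (TTTGAA or TTCGAA, on both strands) lay in 14 of 19 mitotic genes (73.7%) and 2 of 14 replication genes (14.3%), against 19.5% of all genes with a promoter. E2F-like letters (TTTCCCGC, TTTGGCGC, TTTCGCGC or TTTGCCGC) showed the opposite split, with 11 of 14 replication genes (78.6%) and 3 of 19 mitotic genes (15.8%), against 3.99% of all genes. CCAAT, the letters bound by NF-Y, lay in 16 of 19 mitotic and 10 of 14 replication genes, against 39.7% of all. Shares are per gene with any of its promoters, and a CHR core and CCAAT can overlap by sharing bases, as in MKI67. A match describes the letters and is not a tested site.

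The 100 bases before the start are shown for 5 mitotic genes that passed the unadjusted threshold in a comparison below and hold a CHR core in this stretch, 5′ to 3′ on the gene's strand, with CHR cores and CCAAT (read as ATTGG on the other strand) in capitals. Positions count back from -1, the base before the start.
ANLN (chr7:36389762-36389861, plus strand): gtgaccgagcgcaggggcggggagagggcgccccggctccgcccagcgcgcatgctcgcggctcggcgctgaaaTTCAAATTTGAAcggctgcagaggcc
BUB1B (chr15:40160969-40161068, plus strand): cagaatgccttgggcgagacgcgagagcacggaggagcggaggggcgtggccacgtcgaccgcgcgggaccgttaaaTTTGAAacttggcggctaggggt
KIF11 (chr10:92593030-92593129, plus strand): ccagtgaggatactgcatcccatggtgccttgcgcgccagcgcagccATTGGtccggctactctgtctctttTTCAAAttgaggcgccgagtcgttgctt
CDK1 (chr10:60778378-60778477, plus strand): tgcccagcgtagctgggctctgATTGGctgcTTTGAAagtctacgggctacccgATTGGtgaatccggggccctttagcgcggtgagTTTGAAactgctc
MKI67 (chr10:128126424-128126523, minus strand): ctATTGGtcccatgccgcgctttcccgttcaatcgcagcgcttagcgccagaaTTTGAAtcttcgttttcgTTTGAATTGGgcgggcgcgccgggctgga
In ANLN 2 CHR cores adjoin, at -26 and -20 from the start, and in BUB1B 1 lies at -23. In KIF11 a CCAAT at -53 precedes the core at -28, and in CDK1 CCAAT at -46 precedes a core at -13. In MKI67 a core at -29 runs into a CCAAT at -24. TOP2A and MAD2L1, which also passed, hold their CHR cores elsewhere in the promoter window and none in these 100 bases.

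For contrast, 3 replication genes are shown with CCAAT and E2F-like letters, read on either strand, in capitals. MCM6 has overlapping E2F-like letters at -90 and -86, CDT1 has them at -35 and TYMS at -39, and none of these stretches holds a CHR core, although the promoter window of MCM6 has one further from the start.
MCM6 (chr2:135876444-135876543, minus strand): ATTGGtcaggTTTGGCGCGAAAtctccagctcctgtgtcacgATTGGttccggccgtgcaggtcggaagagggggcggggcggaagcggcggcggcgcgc
CDT1 (chr16:88803689-88803788, plus strand): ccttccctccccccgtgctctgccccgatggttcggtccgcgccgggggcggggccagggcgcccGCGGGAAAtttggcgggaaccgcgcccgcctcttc
TYMS (chr18:657553-657652, plus strand): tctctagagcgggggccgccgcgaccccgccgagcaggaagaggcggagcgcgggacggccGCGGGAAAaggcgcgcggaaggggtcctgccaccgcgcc

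SAG was compared with DMSO within each kind of cell, to ask which genes follow activation of the pathway. Mitotic genes lay higher with SAG, with a median log2 fold change of 0.24 over 25 genes (22 above 0), and replication genes nearer to 0, with 0.08 over 18 genes (14 above 0), while the median of all genes tested was 0.00. Without CTL cells with DMSO the medians were 0.10 for mitotic (18 of 25 above 0) and 0.02 for replication genes (10 of 18 above 0). That fit has no block, and its only DMSO library is of ZNF521 cells. At an unadjusted p no higher than 0.05, the threshold the study used (here from edgeR's quasi-likelihood test), 9 of 43 members were called, against 11.3% of all genes tested. The study also left out genes with fewer than 25% of values at least 1.5-fold from the gene's median, a filter not applied here. It would keep 8 of 43 members, against 32.8% of genes in the normalized table, and would drop ANLN, TOP2A and BUB1B among the calls. Of the calls, 8 of 25 mitotic genes were higher (ANLN, TTK, CDK1, MAD2L1, KIF11, TOP2A, HMGB2 and BUB1B), against 6.21% of all genes tested, and none was lower, against 5.12%. Of 18 replication genes, 0 were higher and 1, TYMS, was lower. None of the 43 passed the Benjamini-Hochberg adjusted threshold of 0.05, which 0.0401% of all genes did, and the smallest adjusted p of a member was 0.391. Leaving out single libraries changed these counts. Without CTL cells with DMSO the log2 fold changes of ANLN, TOP2A and KIF11 were 0.36, 0.28 and 0.22. Members outside the 9 had values of like size in that fit. Among them were MKI67 (0.46), MCM6 and CCNA2 (0.23 each), MCM4 (0.21) and CDT1 (-0.23). Without CTL cells with SAG 1 was called (2.32% of all genes), without ZNF521 cells with DMSO 29 (40.8%) and without ZNF521 cells with SAG 1 (2.71%), so that the share of all genes moved with each library too. With offsets corrected for GC content, 3 were called.

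The spindle checkpoint genes had the highest median of the mitotic roles in the fit on all libraries (0.52 over 4 genes). Without CTL cells with DMSO, members of other roles, among them ANLN (0.36) and TOP2A (0.28), had higher values than each checkpoint gene. TTK, also named MPS1, the kinase that starts checkpoint signalling at unattached kinetochores, had 1082 normalized counts in ZNF521 and 1081 in CTL cells with SAG, against 963 in ZNF521 and 384 in CTL cells with DMSO. Both SAG libraries lay above both DMSO libraries, and CTL cells with DMSO were far below the other three. Its log2 fold change was 0.81 ± 0.24 SE (unadjusted p = 0.00529, adjusted p = 0.391), and 0.16 without CTL cells with DMSO. MAD2L1, the checkpoint protein MAD2 that blocks the anaphase-promoting complex, had 872 and 968 normalized counts in ZNF521 and CTL cells with SAG, against 820 and 390 with DMSO (0.69 ± 0.23 SE, unadjusted p = 0.011), with the same library at the bottom, and 0.16 without it. BUB1B, the checkpoint kinase-like protein BUBR1, had 1512 and 1487 with SAG, against 1324 and 1050 with DMSO (0.35 ± 0.15 SE, unadjusted p = 0.0399), and 0.17 without CTL cells with DMSO. BUB1, a kinase of the same checkpoint, did not pass (0.24 ± 0.15 SE, unadjusted p = 0.141).

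Among the cyclins and CDK1 the median was 0.28 over 4 genes. CDK1, the kinase that drives entry into mitosis, had 1072 normalized counts in ZNF521 and 1121 in CTL cells with SAG, against 982 and 468 with DMSO, so that both SAG libraries were above both DMSO libraries and CTL cells with DMSO had less than the others. The log2 fold change was 0.68 ± 0.22 SE (unadjusted p = 0.00857), and 0.15 without CTL cells with DMSO. Its partners CCNA2, CCNB1 and CCNB2 (cyclins A2, B1 and B2) had 0.32, 0.19 and 0.24, and none passed. CCNB1, the most abundant of them, had 7768 and 7870 normalized counts with SAG in ZNF521 and CTL cells, against 7277 and 6461 with DMSO.

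Genes of the spindle and of cytokinesis had a median of 0.31 over 5 genes, and ANLN, the actin-binding scaffold of the contractile ring, had the smallest p of all members. ANLN had 1199 normalized counts in ZNF521 and 1114 in CTL cells with SAG, against 895 and 684 with DMSO. Its SAG and DMSO libraries did not overlap, and the gap was present in both kinds of cell. The log2 fold change was 0.56 ± 0.15 SE (unadjusted p = 0.00304, adjusted p = 0.391), and 0.36 without CTL cells with DMSO. KIF11, the kinesin that pushes the spindle poles apart, had 1407 and 1412 with SAG in ZNF521 and CTL cells, against 1207 and 844 with DMSO (0.48 ± 0.16 SE, unadjusted p = 0.0119), again with no overlap, and 0.22 without CTL cells with DMSO. KIF20A, TPX2 and NUSAP1 had 0.12, 0.05 and 0.31, and none passed.

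Of the 3 genes for chromosome structure, 2 passed. TOP2A, the topoisomerase that untangles sister DNA, had 13946 and 13734 normalized counts in ZNF521 and CTL cells with SAG, against 11340 and 8914 with DMSO (0.46 ± 0.17 SE, unadjusted p = 0.0207), and 0.28 without CTL cells with DMSO. HMGB2, a chromatin protein, had 1602 and 1746 with SAG, against 1637 and 896 with DMSO (0.46 ± 0.20 SE, unadjusted p = 0.0395), and its SAG and DMSO libraries overlapped, since ZNF521 cells with DMSO lay between those with SAG. Its log2 fold change was 0.02 without CTL cells with DMSO. MKI67, the gene of the proliferation marker Ki-67 that coats mitotic chromosomes, had 3394 and 3353 in ZNF521 and CTL cells with SAG, between 2450 and 4713 with DMSO, and a log2 fold change of -0.01 ± 0.21 SE. Without CTL cells with DMSO its log2 fold change was 0.46, in a fit whose only DMSO library is the low one of ZNF521 cells.

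The other mitotic roles held no call. The kinetochore genes CENPE, CENPF and CENPA had 0.38, 0.22 and 0.19. CDC20 and UBE2C, which activate and serve the anaphase-promoting complex, had 0.05 each, and CDC20 had 3323 and 3412 normalized counts with SAG in ZNF521 and CTL cells, against 3411 and 3090 with DMSO. The mitotic kinases and the passenger protein survivin (BIRC5) had a median of -0.02 over 4 genes. PLK1, a kinase of spindle assembly and mitotic exit, had 1341 and 1407 in ZNF521 and CTL cells with SAG, against 1492 and 1795 with DMSO (-0.25 ± 0.15 SE, unadjusted p = 0.109), so that both SAG libraries were below both DMSO libraries. AURKB, the kinase of the passenger complex, had the same arrangement, with -0.08. Both are among the more GC-rich members, at 57.1% for PLK1 and 55.7% for AURKB.

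Replication genes lay near 0 with SAG. The 9 genes of origin licensing and the helicase had a median of 0.05, and within the MCM helicase MCM4 and MCM6 stood at 0.27 ± 0.15 and 0.26 ± 0.14 SE while MCM2, MCM3, MCM5 and MCM7 lay from 0.03 to 0.06. MCM6 and MCM4 have the lowest GC content of these subunits, at 43.2% and 47.7%. With the correction for GC content described below, MCM4 had 0.25, MCM7 0.19 and MCM2 0.18. MCM5 then had 0.16, MCM6 0.12 and MCM3 0.10, so that the split was not kept with that correction. Without CTL cells with DMSO, and without the correction, MCM6 had 0.23 and MCM4 0.21. In that fit MCM2, MCM3, MCM5 and MCM7 had -0.06, 0.04, -0.10 and -0.04, so that the split was kept there. MCM6 had 1854 and 1946 normalized counts in ZNF521 and CTL cells with SAG, against 1614 and 1565 with DMSO, and MCM4 had 4805 and 4787, against 4140 and 3845. The SAG libraries lay above the DMSO libraries for both subunits, though neither passed (unadjusted p = 0.0969 for MCM6 and 0.105 for MCM4). CDT1, the licensing factor that loads the helicase, had 1331 and 1175 with SAG, against 1466 and 1543 with DMSO (-0.27 ± 0.15 SE, unadjusted p = 0.1002), the reverse arrangement. CDT1 has the highest GC content of the members, 64.3%, and its log2 fold change was -0.02 with the correction for GC content. Without CTL cells with DMSO, and without the correction, its log2 fold change was -0.23.

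TYMS, thymidylate synthase, which makes the nucleotide dTMP, was the only replication gene past the unadjusted threshold. TYMS had 154 normalized counts in ZNF521 and 159 in CTL cells with SAG, against 166 and 293 with DMSO (-0.50 ± 0.21 SE, unadjusted p = 0.0354, adjusted p = 0.412). CTL cells with DMSO alone were high, and without them the log2 fold change was -0.09. Its locus is shared with ENOSF1 and TYMSOS on the opposite strand. The libraries were strand-specific by the methods, and whether the counting used the strand is not given in the sources used here. ENOSF1 had 217 and 183 normalized counts in ZNF521 and CTL cells with SAG, against 233 and 232 with DMSO, and did not share the high value. The ribonucleotide reductase subunits RRM1 and RRM2 had 0.26 and 0.11, with RRM1 at 2672 and 2769 normalized counts in ZNF521 and CTL cells with SAG, against 2462 and 2102 with DMSO (unadjusted p = 0.11).

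Of the remaining replication genes, FEN1, the flap endonuclease that processes Okazaki fragments, had 0.15 and PCNA 0.26. UHRF1, which directs maintenance methylation to newly copied DNA, was nearly level, with 843 and 844 normalized counts in ZNF521 and CTL cells with SAG, against 849 and 770 with DMSO (0.06). E2F1, CDK2 and CCNE2, which control entry into S phase, had -0.07, 0.10 and 0.42. CCNE2 had 99.6 and 114 normalized counts with SAG in ZNF521 and CTL cells, against 107 and 55.3 with DMSO, and its log2 fold change had the widest error (± 0.27 SE, unadjusted p = 0.139). CTL cells with DMSO alone were low, and without them the value was -0.02.

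**Figure D2:**
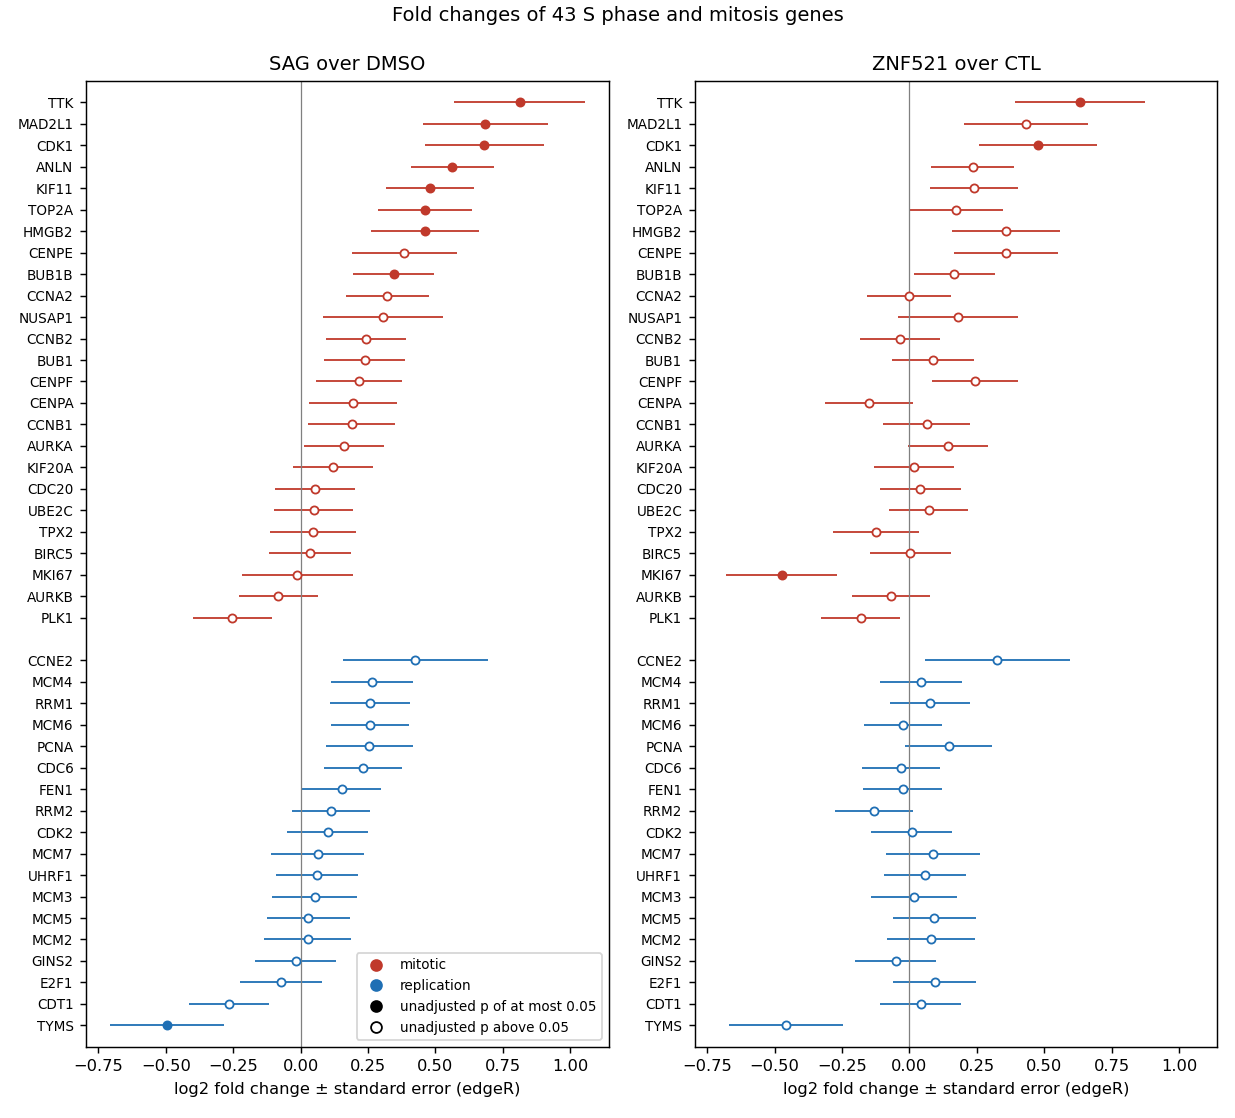
Log2 fold change ± standard error of 43 members from edgeR for SAG over DMSO (left) and ZNF521 over CTL (right), with mitotic genes in red and replication genes in blue, each ordered by the SAG value. Filled points have an unadjusted p of at most 0.05: for SAG 8 mitotic genes up to 0.81 (TTK) and TYMS at -0.50, and for ZNF521 TTK, CDK1 and MKI67.

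ZNF521 was compared with CTL on the same 4 libraries, to ask what the co-factor changes at a given treatment. The 2 comparisons share all of their libraries, so that their values are set side by side and not taken as separate evidence. The members lay closer to 0 here, with medians of 0.09 for mitotic and 0.04 for replication genes (18 of 25 and 12 of 18 above 0), against 0.00 for all genes tested. Without CTL cells with DMSO they lay below 0, with medians of -0.08 for mitotic (5 of 25 above 0) and -0.04 for replication genes (8 of 18 above 0), and 21 of 43 members had the opposite sign. That fit has no block and sets ZNF521 cells with SAG and with DMSO against CTL cells with SAG alone. Its values therefore also hold the SAG difference. In the pair with SAG alone the median log2 ratio was -0.04 in both groups, with 10 of 25 mitotic and 6 of 18 replication genes above 0. With all 4 libraries 3 of 43 members were called at the unadjusted threshold, against 5.48% of all genes tested. TTK and CDK1 were higher in ZNF521 cells, 2 of 43 members against 2.36% of all genes tested, and MKI67 was lower, 1 of 43 against 3.11%. None passed the adjusted threshold (0.00668% of all genes did), and the smallest adjusted p of a member was 0.893. Without CTL cells with DMSO 0 members were called, against 4.05% of all genes tested, without CTL cells with SAG 16 (27.8% of all genes), without ZNF521 cells with DMSO 0 (0.795%) and without ZNF521 cells with SAG 1 (1.06%).

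TTK had the largest value, 0.63 ± 0.24 SE (unadjusted p = 0.0214). The difference lay in the DMSO pair alone, and without CTL cells with DMSO the value was -0.08. CDK1 had 0.48 ± 0.22 SE (unadjusted p = 0.0486), and -0.12 without that library. MAD2L1 and CENPE had 0.43 ± 0.23 and 0.36 ± 0.19 SE and did not pass (unadjusted p = 0.0825 and 0.0871), and without that library they had -0.19 and 0.00.

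MKI67 was lower in ZNF521 cells, with -0.47 ± 0.21 SE (unadjusted p = 0.0385). It had 3394 normalized counts in ZNF521 and 3353 in CTL cells with SAG, and 2450 in ZNF521 and 4713 in CTL cells with DMSO. The cells with SAG were level (log2 ratio of ZNF521 over CTL 0.02) and the DMSO pair held both the lowest and the highest value. The log2 fold change without CTL cells with DMSO was -0.19, in a fit that keeps the low ZNF521 library with DMSO and no CTL library with DMSO. TYMS had -0.46 ± 0.21 SE and missed the threshold (unadjusted p = 0.05001). RRM2 had 2105 and 2254 in ZNF521 and CTL cells with SAG and 1919 and 2117 with DMSO (-0.13 ± 0.14 SE), lower in ZNF521 cells in both pairs. E2F1, the factor that opens the S phase programme, had 768 and 688 with SAG and 779 and 752 with DMSO (0.09 ± 0.15 SE), higher in ZNF521 cells in both, and PCNA had 3549 and 3774 with SAG and 3525 and 2666 with DMSO (0.15 ± 0.16 SE), with the pairs in opposite directions.

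A minority of the members ordered all 4 libraries by ZNF521, as did a minority of all genes tested. Both ZNF521 libraries were above both CTL libraries for E2F1, MCM2, MCM7, CENPF and UBE2C, 5 of 43 against 13.3% of all genes tested, and below them for GINS2 and RRM2, against 13.0%. For SAG, both libraries were above both DMSO libraries for 15 of 25 mitotic and 8 of 18 replication genes, against 25.4% of all genes tested, and below for CDT1, TYMS, AURKB and PLK1, against 22.7%.

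**Figure D3:**
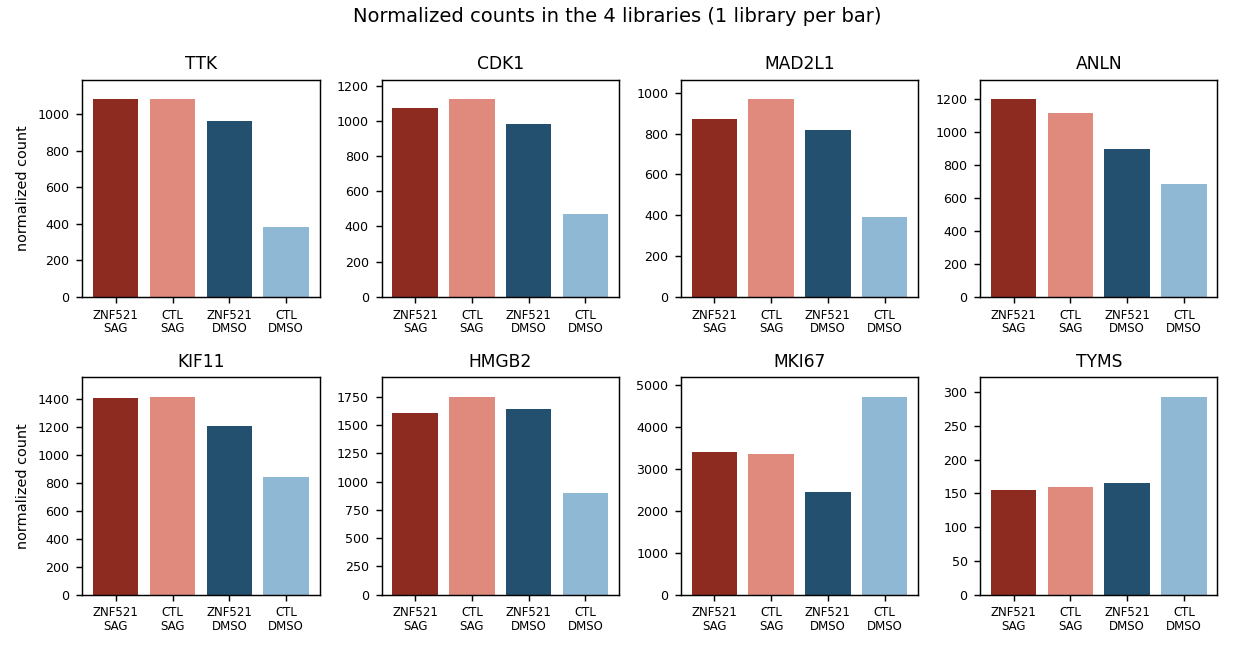
Normalized counts of 8 members in the 4 libraries, 1 library per bar and with no replicate or error bar, in the order ZNF521 with SAG, CTL with SAG, ZNF521 with DMSO and CTL with DMSO. TTK, CDK1, MAD2L1 and HMGB2 are low in CTL cells with DMSO only (384 to 896), ANLN and KIF11 are higher in both SAG libraries, and MKI67 and TYMS are high in CTL cells with DMSO (4713 and 293).

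The ratio of a single pair of libraries shows where these differences sit. The exact 95% intervals (Clopper-Pearson) cover counting error only, not the variation between cultures. For SAG over DMSO in ZNF521 cells, 2 mitotic genes (ANLN and MKI67) and 0 replication genes were at least 25% higher, against 9.17% of all genes tested, and none was 20% lower, against 10.5%. In CTL cells 14 of 25 mitotic and 4 of 18 replication genes were at least 25% higher, against 22.2% of all, and 4 members (MKI67, PLK1, CDT1 and TYMS) were at least 20% lower, against 22.6%. The median log2 ratio of mitotic genes was 0.09 in ZNF521 and 0.40 in CTL cells, and that of replication genes was 0.00 in ZNF521 and 0.17 in CTL cells.

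TTK had a SAG over DMSO ratio of 1.12 (interval 1.03 to 1.22) in ZNF521 cells and 2.82 (2.499 to 3.18) in CTL cells. MAD2L1 had 1.06 (0.968 to 1.17) in ZNF521 cells and 2.48 (2.20 to 2.80) in CTL cells. ANLN had 1.34 (1.23 to 1.46) in ZNF521 cells and 1.63 (1.48 to 1.80) in CTL cells, so that its ratio exceeded 1 beyond counting error in both. MKI67 was 1.39 (1.32 to 1.46) in ZNF521 cells and 0.711 (0.679 to 0.745) in CTL cells, opposite in direction. With 1 library per condition the difference between the 2 kinds of cell cannot be tested.

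For ZNF521 over CTL the DMSO pair held nearly all of the spread. With SAG no member was 25% higher or 20% lower, against 9.04% and 7.29% of all genes, and TTK had a ratio of 1.0 (0.919 to 1.09). With DMSO 11 mitotic and 2 replication genes (PCNA and CCNE2) were at least 25% higher, against 19.4% of all, and 1 of each group, MKI67 and TYMS, was at least 20% lower, against 19.3%. TTK had 2.51 (2.22 to 2.83), CDK1 2.10 (1.87 to 2.35) and MKI67 0.520 (0.495 to 0.546) in that pair. Both pairs of large spread, SAG over DMSO in CTL cells and ZNF521 over CTL with DMSO, contain the library of CTL cells with DMSO.

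GC content of the transcript moved with the fold changes, in the members and across all genes. The median GC content was 42.1% for mitotic and 48.7% for replication genes, against 48.8% for all genes tested. Across genes, which are not independent replicates and share the 4 libraries, Pearson's r of GC content with the SAG log2 fold change was -0.79 over the 43 members and -0.59 over 14601 genes, and for ZNF521 -0.51 and -0.31. Of the 9 members under 40% GC, 8 mitotic and 1 replication gene (CCNE2), 7 passed the unadjusted threshold as higher with SAG, and their median was 0.48. Of 21 members from 40 to under 50% GC 1 was higher (BUB1B), and of 13 at 50% GC and over 0 were, with medians of 0.22 and 0.03.

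With offsets corrected for GC content in 20 bins, 3 members were called for SAG, against 4.79% of all genes tested, and none passed the adjusted threshold, against 0.0534%. Here 2 of 25 mitotic genes were higher with SAG at the unadjusted threshold, ANLN (0.36 ± 0.14 SE, unadjusted p = 0.019) and TTK (0.49 ± 0.19 SE, unadjusted p = 0.023), against 1.97% of all genes, and TYMS was lower (-0.50 ± 0.19 SE, unadjusted p = 0.0202), against 2.82%. The medians were then 0.14 for mitotic and 0.13 for replication genes, and 0.03 and 0.05 without CTL cells with DMSO. CDK1 and MAD2L1 had 0.36 and 0.40 (unadjusted p = 0.0573 and 0.055) after correction, and PLK1 had -0.10. For ZNF521, TTK (0.43), MKI67 (-0.45) and TYMS (-0.43) passed the unadjusted threshold after correction, 3 members against 5.24% of all genes (2.28% higher and 2.97% lower), and none the adjusted one, against 0.0267%. Genes in the GC bin of TTK had a median log2 ratio of SAG over DMSO of 0.14 in ZNF521 and 0.52 in CTL cells, where TTK itself had 0.17 in ZNF521 and 1.49 in CTL cells. Set against the median of genes of like GC content, the SAG over DMSO ratios of ZNF521 cells had a median log2 excess of -0.01 for mitotic and 0.04 for replication genes, and those of CTL cells 0.24 in both groups. The part of GC content, and of the library of CTL cells with DMSO, in these results was not tested beyond these values.

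**Figure D4:**
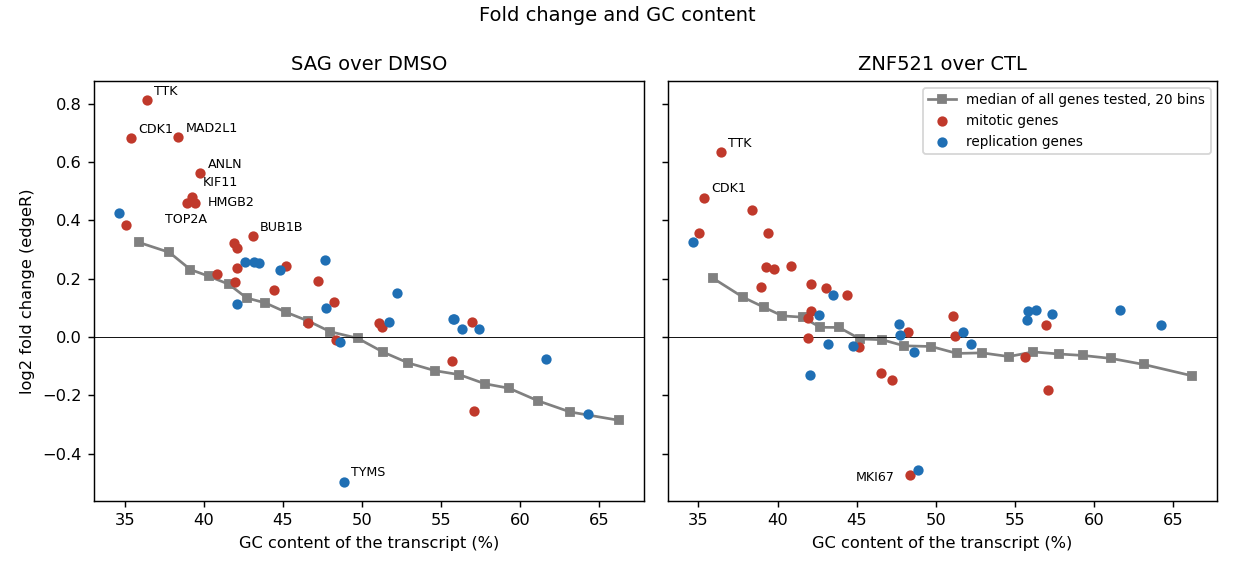
Log2 fold change of the members from edgeR against the GC content of the transcript (%), for SAG over DMSO (left) and ZNF521 over CTL (right), with mitotic genes in red and replication genes in blue. Grey squares are medians of all genes tested in 20 bins of GC content, and named genes passed an unadjusted p of 0.05, with 7 of those higher with SAG under 40% GC.

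Other genes of the cycle were read from lists chosen for their roles, and their counts stand against the shares of all genes tested that were higher (6.21%) or lower (5.12%) with SAG, or after correction for GC content (1.97% and 2.82%). Of 48 other replication genes, 8 were higher with SAG at the unadjusted threshold and 0 lower (median 0.17), with 2, ORC1 and CLSPN, higher after the correction. CDC7, the kinase that fires origins, had 0.60 ± 0.19 SE, and WDHD1, CLSPN and RAD51AP1, which act at the fork or in recombination, had 0.53, 0.48 and 0.59. These 4 genes had 0.23, 0.28, 0.35 and 0.08 in the same order when CTL cells with DMSO were left out. Of 60 other mitotic genes tested, 18 were higher and 1, CDC25B, lower with SAG (median 0.18), with 4 higher after the correction (SMC2, NCAPG, ECT2 and ARHGAP11A). The condensin subunits SMC2 and NCAPG had 0.66 ± 0.16 and 0.68 ± 0.18 SE, and ECT2 and ARHGAP11A, which act on RHOA, had 0.65 and 0.55. With that library left out SMC2 and NCAPG had 0.37 each, ECT2 0.24 and ARHGAP11A 0.26. None of these passed the adjusted threshold.

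Of 20 genes that control transcription of the cycle, 3 were higher with SAG, RB1 and RBL1, of the retinoblastoma family, and LIN9, a subunit of DREAM (0.53, 0.43 and 0.50), and none was lower, and after the correction for GC content 0 passed. RB1 had 0.35, RBL1 0.31 and LIN9 0.04 when CTL cells with DMSO were left out. Of 21 tested genes of cell cycle exit, 0 were higher and 2 were lower with SAG, KLF4 (-0.42 ± 0.16 SE) and CDKN2A (-0.43 ± 0.18 SE), with -0.42 and -0.54 without CTL cells with DMSO. For ZNF521, where 2.36% of all genes were higher and 3.11% lower, the same lists held 1 higher replication gene (RAD51AP1, 0.51), 2 higher mitotic genes (ASPM, 0.39, and SMC2, 0.35) and 0 in the other 2 lists. With that library left out RAD51AP1 had 0.00, ASPM 0.23 and SMC2 -0.04. After the correction, TOB1 was the only gene of cell cycle exit lower with SAG and BTG1 the only one lower in ZNF521 cells (2.82% and 2.97% of all genes). ORC1, CDC25B, TOB1 and BTG1 are named after their values were seen.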

How the data were processed

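RNA of 4 DAOY libraries was sequenced as paired 50 nt reads by the authors, whose aligner and gene counter was STAR (2.7.0e in the submitters' processing notes), on the hg38 genome. The deposited raw table holds these counts. The deposited normalized table holds signal values, which the authors obtained by dividing the counts by 1 size factor per library (0.887 to 1.19, median of ratios of DESeq2). The annotation and the strand setting are not given in the sources used here. Libraries held 12294833 to 16314685 counts.

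Members were matched by symbol and split into replication and mitosis genes. The members and the gene lists were chosen with earlier results of these data known. The 14970 genes that reached 10 counts in 2 or more libraries were fitted in R 4.3.3 with edgeR 4.0.16 (TMM, glmQLFit, glmQLFTest), treatment and cell kind being additive terms, which left 1 residual degree of freedom with a prior of 11.7. P-values are two-sided and were adjusted by Benjamini-Hochberg over all genes. With 1 library per condition they rest on the agreement of the 2 pairs and on the prior. Ratios of 2 libraries carry exact 95% Clopper-Pearson intervals, which cover counting error only. Values per library are given in full for the 5 members of smallest unadjusted p per group and comparison, the members of highest and lowest count per kb and 1 member of each role not reached so; TOP2A, HMGB2 and BUB1B were added since they passed the unadjusted threshold. Other lists give up to 4 genes of smallest p.

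GC content and length came from canonical GENCODE 44 transcripts on hg38 (19803 of 20363 genes, 97.25%). Promoters came from RefSeq (GRCh38.p14). Alternatives were DESeq2 1.42.0, RLE factors, scaling by library size, dropping the filter on low counts or raising it to a mean of 50, leaving out the block, limma 3.58.1 (trend), offsets corrected for GC content in 20 bins, a 1.5-fold limit for ratios, and each library left out in turn (with the correction for GC content too, added after seeing the data). A fit with 3 libraries has 1 factor and no block, so that its value also holds part of the other factor. Scripts ran in Python 3.11.15. The fit was also run on simulated counts with the same spread in every library and no trend with GC content. These data differ in both, so that the simulation is not used as evidence for the results. Another gene overlaps 12 members in the annotation, and pseudogenes of the members by name (23) have 0 entries in the tables, so that reads shared with them could be counted for a member or lost.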

Additional observations from a re-analysis of the deposited data

Results flagged for a closer look

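Single members had ratios on opposite sides of 1 in the 2 pairs of a factor, with both exact 95% intervals excluding 1. For SAG over DMSO, the log2 ratio in ZNF521 cells minus that in CTL cells was 0.96 for MKI67 (0.47 against -0.49), 0.30 for TPX2, -0.14 for MCM2, -0.29 for MCM5 and -0.19 for MCM7. For ZNF521 over CTL, the log2 ratio with SAG minus that with DMSO was -1.22 for MAD2L1 (-0.15 against 1.07), -0.99 for HMGB2, -0.49 for PCNA, -0.31 for CCNA2, -0.28 for CCNB2 and -0.20 for KIF20A. The intervals hold counting error only, 1 library stands for each condition, and these differences were not tested. The same difference of differences had a median of -0.28 over mitotic genes (21 of 25 below 0) and -0.14 over replication genes (12 of 18 below 0). The library of CTL cells with DMSO, which stood apart, enters every one of these differences. The shares of all genes tested that were flagged or lay below 0 are not given here, so that neither count is read as particular to the members.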

How the results depend on the processing

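The labels carry no replicate numbers to block by, and the libraries were paired only through the other factor, which served as block. Against 9 members called for SAG (11.3% of all genes tested), DESeq2 called 5 (2.83%) and offsets corrected for GC content 3 (4.79%). Without a filter on low counts 3 members passed the adjusted threshold (CDK1, MAD2L1 and TTK), as did 223 of 20363 genes, against 6 with the filter. Against 3 called for ZNF521 (5.48% of all genes), no filter gave 7 (6.18%; TTK passed the adjusted threshold, 1 member, as did 100 genes), DESeq2 1 (1.12%) and no block 1 (2.97%). At a limit of 1.5-fold in place of 25% higher or 20% lower, the members past it were 0 in place of 2 for SAG over DMSO in ZNF521 cells, 11 in place of 22 in CTL cells, and 9 in place of 15 for ZNF521 over CTL with DMSO. The share of all genes past 1.5-fold is not given here, so that these counts are not read as particular to the members.

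With single libraries left out, the calls for SAG ran from 1 to 29 (0 to 29 with the correction for GC content), while 2.32% to 40.8% of all genes were called (0.962% to 28.9%), and those past the adjusted threshold from 0 to 26 (0 to 18). The calls for ZNF521 ran from 0 to 16 (0 to 24 with the correction), while 0.795% to 27.8% of all genes were called (1.07% to 28.4%), and those past the adjusted threshold from 0 to 12 (0 to 15). The highest adjusted counts came from fits with 1 library in a group, in which a large share of all genes passed that threshold too. For SAG, without ZNF521 cells with DMSO, that share was 30.6% (16.6% with the correction). For ZNF521, without CTL cells with SAG, it was 15.6% (17.1% with the correction). Since 1 library stands for a whole group in these fits, the adjusted counts are not read as particular to the members. Over the same fits the median of mitotic genes ran from 0.10 to 0.37 for SAG and from -0.077 to 0.28 for ZNF521. That of replication genes ran from 0.02 to 0.14 for SAG and from -0.04 to 0.12 for ZNF521. Without CTL cells with DMSO 22 of 43 members kept the sign of their ZNF521 log2 fold change and 21 did not, and for SAG 31 kept it. For ZNF521 that fit sets cells with SAG and with DMSO against CTL cells with SAG alone, so that it also holds the SAG difference. In the pair with SAG alone the log2 ratio was 0.0002 for TTK, -0.06 for CDK1 and -0.15 for MAD2L1. It was -0.19 for CCNE2, -0.09 for PCNA and -0.04 for TYMS. Among the members with the other sign in the fit without CTL cells with DMSO were TTK (-0.075), CDK1 (-0.12), MAD2L1 (-0.19), CCNE2 (-0.14), PCNA (-0.089) and TYMS (0.012). Their lowest and highest values over the 4 fits were -0.075 and 1.40 for TTK, -0.12 and 1.12 for CDK1, -0.19 and 1.10 for MAD2L1, -0.14 and 0.88 for CCNE2, -0.089 and 0.39 for PCNA, and -0.89 and 0.012 for TYMS.

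Over 8 alternatives on all 4 libraries, 138 of 160 values of the members followed in full kept their direction and side of the unadjusted threshold, 15 no longer passed it and 7 came to pass it. Each condition rests on 1 library, so that no value here measures the variation between cultures.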
